A study of Homo sapiens with 6 samples.

Results

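PC-3, a human prostate cancer cell line that grows without androgens, was grown as tumors in nude mice, and RNA from 3 vehicle tumors and 3 tumors treated with WCE, a standardized extract of the herb Wedelia chinensis, was sequenced. The results below concern 10 genes of the NFκB pathway among the 24000 gene entries of the deposited table. They are the NFκB subunits NFKB1, NFKB2, REL, RELA and RELB, the kinase components CHUK, IKBKB and IKBKG, and the small GTPase-like proteins NKIRAS1 and NKIRAS2. The 10 genes were chosen by their symbols, with the differences between these vehicle and WCE tumors already known, so those differences are given as a description and no test is read from them. All 10 were found, each as 1 entry, and all 10 had a mean of at least 0.5 FPKM over the 6 tumors, the minimum for entering the comparison. FPKM counts sequenced fragments relative to transcript length and to the number of mapped fragments in the library.

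Both groups were xenografts of the same cell line, which the methods describe as carrying a luciferase transgene and as injected into the anterior prostate of male athymic mice. The labels give 10 weeks as the treatment duration for both groups and no dose, and the methods describe daily dosing of WCE by gavage. The text of the study gives other treatment times and more than 1 dose for such tumors, so neither is certain here. Athymic mice lack mature T cells and keep myeloid cells, so host cells can be present in such tumors.

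NFκB is a family of dimeric transcription factors. RELA (p65), REL and RELB carry activation domains, whereas NFKB1 and NFKB2 encode the precursors p105 and p100, which are processed to p50 and p52. In resting cells the dimers are held by IκB proteins. In the canonical pathway a complex of the kinases IKKα (CHUK) and IKKβ (IKBKB) with the scaffold NEMO (IKBKG) phosphorylates IκB and thereby releases the dimers, while in the non-canonical pathway IKKα drives the processing of p100. NKIRAS1 and NKIRAS2, also called κB-Ras, bind IκBβ and slow its degradation, and they also bind the GTPase-activating complex of the Ral proteins. Phosphorylation, processing and nuclear entry of these proteins are not measured by RNA-seq, and only transcript levels are given here.

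In vehicle replicate 3 and WCE replicate 1 the values were nearly identical. Over 1915 entries with a mean of at least 50 FPKM, they differed by a median of 0.0278 in absolute log2 value, where the other 14 pairs of tumors differed by 0.0961 to 0.249. Each of the 15805 entries detected in WCE replicate 1 was also detected in vehicle replicate 3. Since these libraries carry different labels, differences are given with all 6 tumors and again with both of them left out. The files hold no read counts, so the absolute depth is unknown. From the steps in low values, WCE replicate 1 had 25.0% of the depth of vehicle replicate 3, the deepest library, and the other tumors had 64.8% to 85.2%. The keratins KRT8 and KRT18 lay between 192 and 322 FPKM in all tumors, and KLK3, an androgen-induced gene, was listed at 0 in each. PC-3 cells are known to express these keratins.

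**Figure D1:**
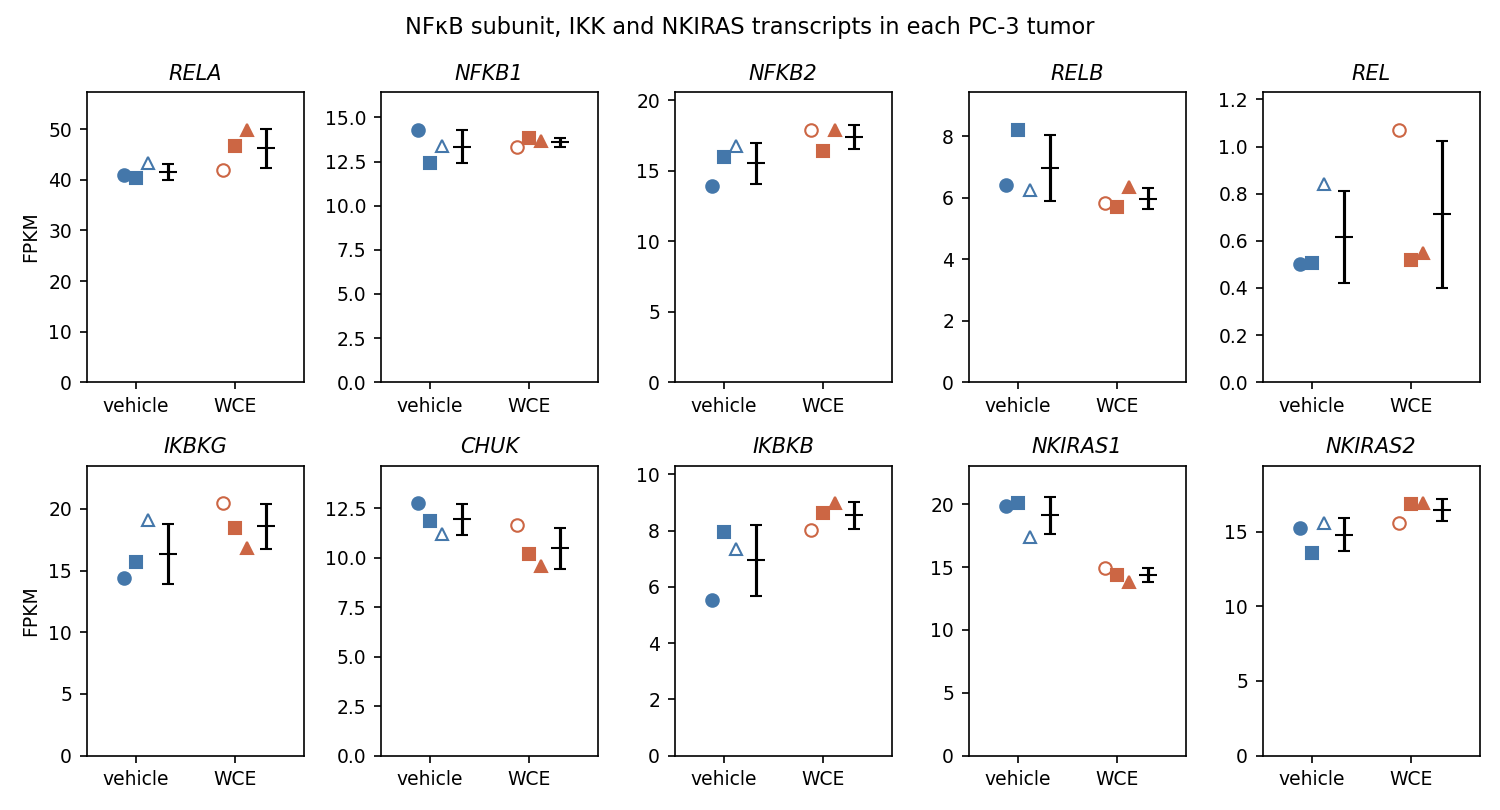
FPKM (linear axes from 0) of the 10 genes in each tumor, with vehicle in blue and WCE in orange; circles, squares and triangles are replicates 1, 2 and 3, open symbols are the nearly identical vehicle replicate 3 and WCE replicate 1, and black bars are mean ± SD (n = 3). The NKIRAS1 values of the WCE tumors lie 2.48 FPKM or more below those of the vehicle tumors, and the groups of the other genes overlap or come within 0.0635 FPKM of each other.

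RELA was the most abundant of the 10 transcripts in each tumor, at 40.3 to 49.9 FPKM, and REL the least abundant, at 0.503 to 1.07 FPKM. By the mean over the 6 tumors the order was RELA (43.9 FPKM), IKBKG (17.5), NKIRAS1 (16.7), NFKB2 (16.5), NKIRAS2 (15.6), NFKB1 (13.5), CHUK (11.2), IKBKB (7.75), RELB (6.46) and REL (0.665). FPKM is scaled to length, so these levels can be set against each other. RELA stood 2.51-fold above IKBKG, and RELB stood 9.72-fold above REL, in 6 of 6 tumors each. NKIRAS2 was above NFKB1, NFKB1 above CHUK and CHUK above IKBKB in 6 of 6 tumors as well. The genes from IKBKG to NKIRAS2 could not be ordered. IKBKG was above NKIRAS1 in 4 of 6 tumors, NKIRAS1 above NFKB2 in 3 of 6, and NFKB2 above NKIRAS2 in 4 of 6. IKBKB was above RELB in 4 of 6 tumors, with vehicle replicates 1 and 2 as the exceptions. The level of NFKB1 varied least among the 6 tumors, with a coefficient of variation of 4.73%, and that of REL varied most, at 35.8%.

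Among the activating subunits, RELA encodes p65, the partner of p50 in the canonical dimer. Its level was 41.0, 40.3 and 43.3 FPKM in vehicle replicates 1, 2 and 3, and 42.1, 46.7 and 49.9 FPKM in WCE replicates 1, 2 and 3. WCE replicates 2 and 3 were above every vehicle tumor, whereas WCE replicate 1 was within their range. The means were 41.5 ± 1.55 and 46.2 ± 3.94 FPKM (SD, n = 3 each). On the log2(FPKM + 1) scale, which is used for every difference below and which understates the change of low genes, RELA was 0.15 higher in WCE tumors (standard error 0.10). With the nearly identical libraries omitted, the difference was 0.24. It was 0.21 without WCE replicate 1 alone and 0.09 without WCE replicate 3.

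RELB, the partner of p52 in the non-canonical pathway, was at 6.42, 8.21 and 6.26 FPKM in the vehicle tumors and at 5.83, 5.71 and 6.35 FPKM in the WCE tumors. The highest value was in vehicle replicate 2, and the groups overlapped through WCE replicate 3. Its difference was −0.19 (standard error 0.12), −0.23 with both nearly identical libraries left out, and −0.08 without vehicle replicate 2. REL encodes c-Rel, best known from lymphoid cells. REL was at 0.503, 0.507 and 0.843 FPKM in the vehicle tumors and at 1.07, 0.517 and 0.550 FPKM in the WCE tumors. Its high values were in vehicle replicate 3 and WCE replicate 1, the nearly identical pair, and the remaining 4 tumors lay between 0.503 and 0.550 FPKM. The REL difference was 0.07 (standard error 0.18) with 6 tumors and 0.03 with both libraries left out. It changed sign without WCE replicate 1, at −0.07, and with limma array weights, at −0.02.

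NFKB1, the source of p50, was at 14.3, 12.4 and 13.4 FPKM in the vehicle tumors and at 13.3, 13.8 and 13.6 FPKM in the WCE tumors. The WCE tumors lay inside the range of the vehicle tumors. Its difference was 0.03 (standard error 0.09) and 0.04 with both nearly identical libraries left out, and without vehicle replicate 2 it was −0.02. NFKB2, the source of p52, was at 13.9, 16.0 and 16.7 FPKM in the vehicle tumors and at 17.9, 16.4 and 17.9 FPKM in the WCE tumors. Its lowest value was in vehicle replicate 1, and WCE replicate 2 was below vehicle replicate 3, so the groups overlapped. The NFKB2 difference was 0.16 (standard error 0.10), 0.19 with both nearly identical libraries left out, and 0.08 without vehicle replicate 1.

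NFKB1, NFKB2 and REL are known targets of NFκB itself, and the promoter sequences below are shown because they carry the κB motif through which the subunits can be induced. Windows from 250 bases before to 50 bases after the start were taken from RefSeq (build GRCh38.p14) for 17 transcription starts of 8 of the 10 genes. RELB and IKBKB have no window. The κB decamer was searched on both strands. It was found in 4 of the 17 windows, in NFKB1, NFKB2 and REL, and in 5.91% of all 35116 windows of this length. Matches that overlap were counted as 1 stretch, as for the near-palindromic stretches of REL and of the NFKB2 window at chr10:102394328-102394627. No match was found in the windows of RELA, CHUK, IKBKG, NKIRAS1 or NKIRAS2. A match describes the letters and does not show binding. All 4 windows are on the plus strand and are written 5′ to 3′ with the κB decamers in capitals.
REL, chr2:60881324-60881623: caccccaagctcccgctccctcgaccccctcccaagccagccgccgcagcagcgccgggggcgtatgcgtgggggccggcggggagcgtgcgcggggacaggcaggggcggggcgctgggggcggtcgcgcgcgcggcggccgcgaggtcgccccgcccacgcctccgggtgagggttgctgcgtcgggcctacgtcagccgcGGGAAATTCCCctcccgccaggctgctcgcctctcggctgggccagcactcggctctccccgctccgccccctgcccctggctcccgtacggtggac
NFKB1, chr4:102501109-102501408: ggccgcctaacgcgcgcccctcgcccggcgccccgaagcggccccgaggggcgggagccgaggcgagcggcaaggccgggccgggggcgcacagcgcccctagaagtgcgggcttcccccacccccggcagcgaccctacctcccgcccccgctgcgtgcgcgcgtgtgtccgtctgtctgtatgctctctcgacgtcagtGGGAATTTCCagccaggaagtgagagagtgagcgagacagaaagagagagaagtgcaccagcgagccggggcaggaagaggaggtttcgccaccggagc
NFKB2, chr10:102394328-102394627: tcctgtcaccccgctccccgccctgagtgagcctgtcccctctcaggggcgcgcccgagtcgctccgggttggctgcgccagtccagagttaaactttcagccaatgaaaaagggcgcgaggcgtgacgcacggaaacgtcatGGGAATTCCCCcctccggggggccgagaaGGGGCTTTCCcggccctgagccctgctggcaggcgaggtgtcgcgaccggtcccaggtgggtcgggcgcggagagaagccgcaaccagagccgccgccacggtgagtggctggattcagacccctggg
NFKB2, chr10:102395455-102395754: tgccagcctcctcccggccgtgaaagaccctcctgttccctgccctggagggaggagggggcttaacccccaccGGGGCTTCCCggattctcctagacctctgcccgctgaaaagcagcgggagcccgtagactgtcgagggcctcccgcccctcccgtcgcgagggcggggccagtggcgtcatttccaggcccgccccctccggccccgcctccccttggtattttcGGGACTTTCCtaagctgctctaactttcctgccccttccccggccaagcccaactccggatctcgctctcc
The REL stretch starts at position −47 from the transcription start and the NFKB1 stretch at −49. NFKB2 has stretches at −107 and −78 of the start in the earlier window and at −176 and −21 in the later one. The tumor values of NFKB1, NFKB2 and REL beside these motifs are those given above.

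**Figure D2:**
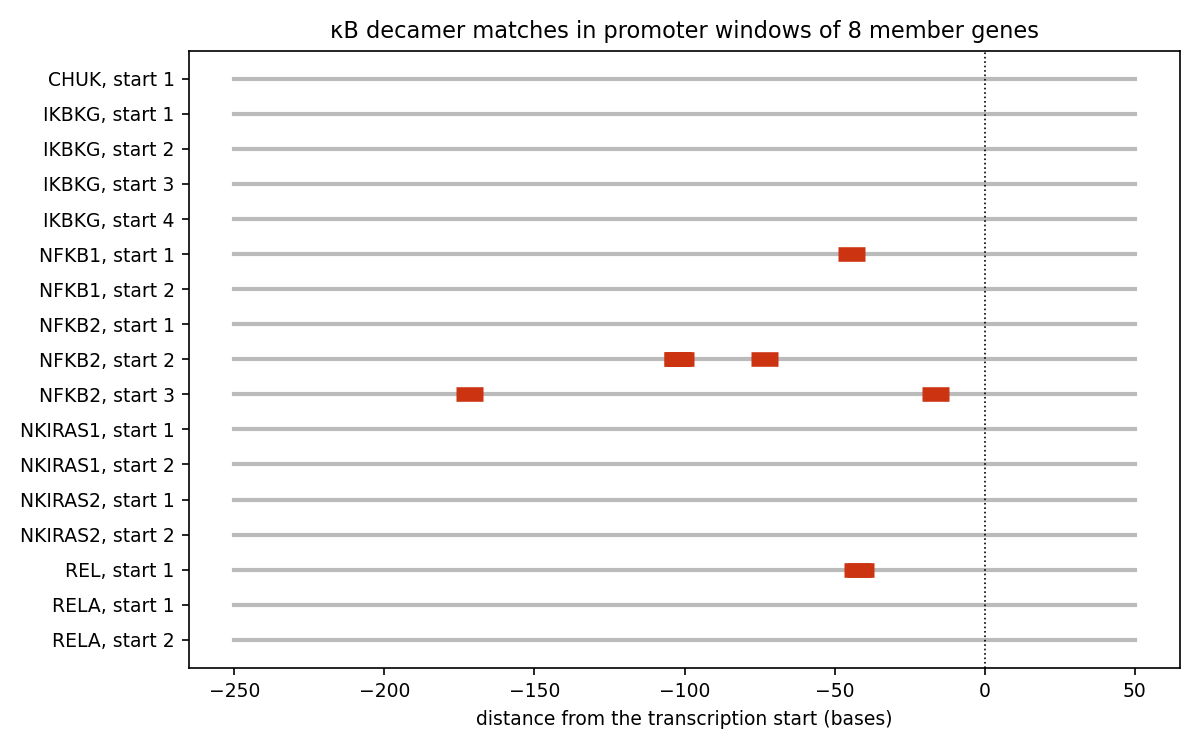
Position of κB decamer matches (red) in RefSeq promoter windows (grey) of 8 of the 10 genes, with the distance from the transcription start in bases on the x axis and 1 row for each start, numbered by chromosome position. The 4 windows with a match belong to NFKB1, NFKB2 and REL.

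Within the summed FPKM of the subunits, RELA made up 52.1% to 56.5% in the 6 tumors, NFKB2 18.3% to 22.3%, NFKB1 15.4% to 18.8%, RELB 6.87% to 10.6% and REL 0.622% to 1.34%. The sum was 78.0 ± 2.21 FPKM in the vehicle group and 83.9 ± 4.11 FPKM in the WCE group (SD, n = 3 each), and the groups overlapped. The RELB share was 8.42%, 10.6% and 7.78% in the vehicle tumors and 7.27%, 6.87% and 7.19% in the WCE tumors. Each WCE tumor was below each vehicle tumor in this share. The ratio of NFKB2 to RELB, the genes of the non-canonical dimer, was 2.17, 1.95 and 2.68 in vehicle tumors and 3.07, 2.87 and 2.82 in WCE tumors, without overlap. The mean ratio differed by 0.657, and by 0.787 with both nearly identical libraries left out. Without vehicle replicate 2 the difference in the RELB share was −0.99 percentage points, against −1.83 with 6 tumors and −2.49 with both nearly identical libraries left out.

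Of the IKK components, IKBKB encodes IKKβ, the main IκB kinase of the canonical pathway. It was at 5.54, 7.97 and 7.35 FPKM in the vehicle tumors and at 8.03, 8.63 and 8.97 FPKM in the WCE tumors. The groups did not overlap, but WCE replicate 1 and vehicle replicate 2 were only 0.0635 FPKM apart, and vehicle replicate 1 stood lowest. The means were 6.95 ± 1.26 and 8.54 ± 0.475 FPKM (SD, n = 3 each), a difference of 0.27 (standard error 0.14). Without vehicle replicate 1 the difference was 0.14, and with both nearly identical libraries left out it was 0.36.

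CHUK, which encodes IKKα, the kinase shared by both branches, was at 12.7, 11.8 and 11.2 FPKM in the vehicle tumors and at 11.6, 10.2 and 9.58 FPKM in the WCE tumors. WCE replicates 2 and 3 were below every vehicle tumor, and WCE replicate 1 was not. The CHUK difference was −0.18 (standard error 0.11), against −0.29 with both nearly identical libraries left out. IKBKG encodes NEMO, the regulatory subunit without kinase activity. It was at 14.4, 15.7 and 19.1 FPKM in the vehicle tumors and at 20.5, 18.5 and 16.9 FPKM in the WCE tumors. The highest values were again in vehicle replicate 3 and WCE replicate 1. The IKBKG difference was 0.18 (standard error 0.13), 0.22 with both nearly identical libraries left out, 0.29 without vehicle replicate 3, 0.09 without vehicle replicate 1 and 0.08 with limma array weights. The IKBKG values are uncertain for a further reason, since the genome holds a near-identical partial copy of IKBKG whose reads the counting could split.

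CHUK and IKBKB thus had differences of opposite sign. The ratio of CHUK to IKBKB was 2.30, 1.49 and 1.52 in vehicle tumors and 1.45, 1.18 and 1.07 in WCE tumors. Every WCE tumor was below every vehicle tumor, although the nearly identical libraries, at 1.52 and 1.45, were close to each other. The mean ratio differed by −0.537, and by −0.769 with both of them left out. As a share of the summed FPKM of the 3 components, CHUK was at 34.0 ± 4.66% in vehicle and 27.8 ± 1.06% in WCE tumors (SD, n = 3 each), a difference of −6.25 percentage points that was −3.77 without vehicle replicate 1 and −9.00 with both nearly identical libraries left out. The IKBKG share was 46.3 ± 3.81% and 49.4 ± 1.69%, and the IKBKB share 19.7 ± 2.74% and 22.8 ± 2.67%, with overlap between the groups for both genes. These shares differed by 3.07 and 3.18 percentage points, and by 4.47 and 4.54 with both nearly identical libraries left out.

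**Figure D3:**
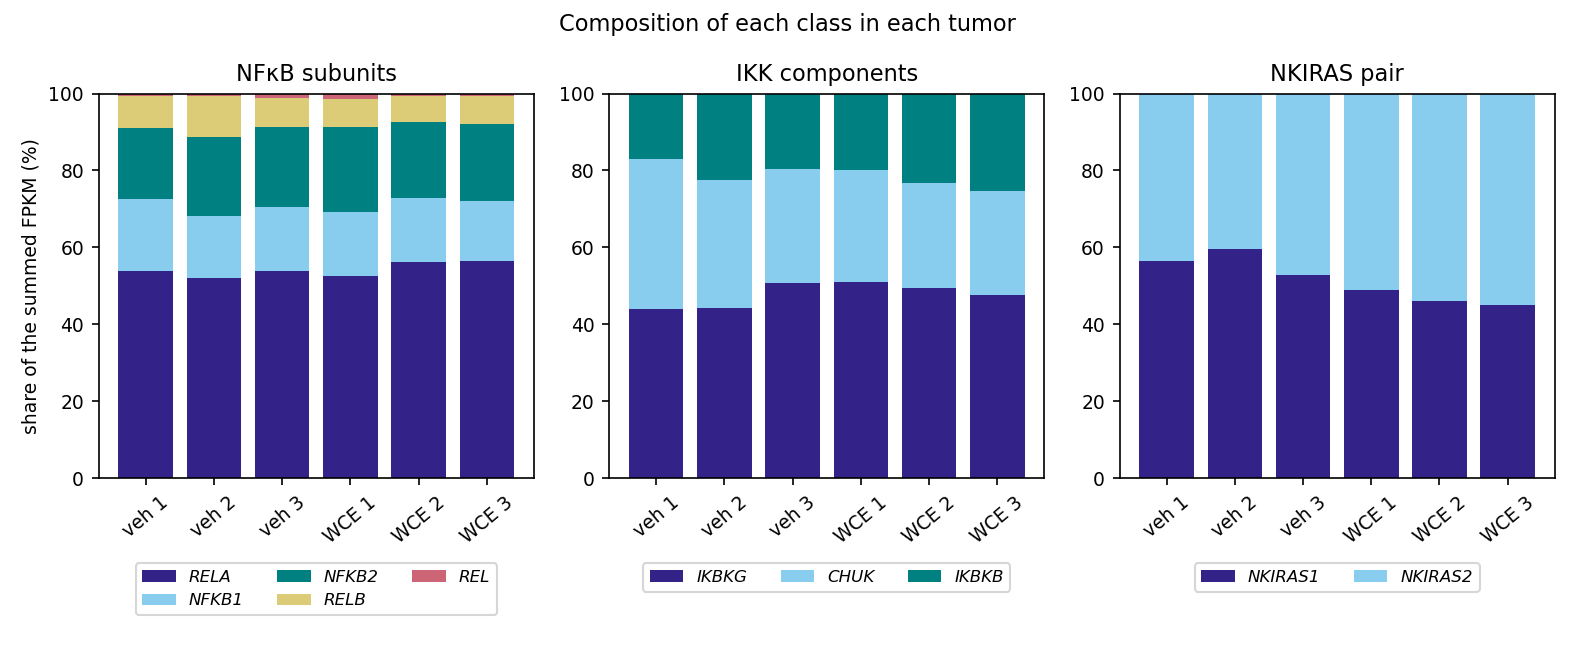
Share (%) of each gene in the summed FPKM of its class in each tumor, for the NFκB subunits, the IKK components and the NKIRAS pair. The NKIRAS1 share is 52.8% to 59.7% in the vehicle tumors and 45.0% to 48.9% in the WCE tumors.

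NKIRAS1 showed the largest difference of the 10 genes. It was at 19.8, 20.1 and 17.4 FPKM in the vehicle tumors and at 14.9, 14.3 and 13.8 FPKM in the WCE tumors. The groups were 2.48 FPKM apart, and the lowest vehicle tumor was vehicle replicate 3. The means were 19.1 ± 1.46 and 14.4 ± 0.549 FPKM (SD, n = 3 each), so the WCE mean was 75.3% of the vehicle mean. On the log2 scale the difference was −0.38 (standard error 0.10). It was −0.47 (standard error 0.10) with both nearly identical libraries left out, and between −0.45 and −0.35 when 1 tumor at a time was left out. NKIRAS1 also differed between the nearly identical libraries, by −0.21 from vehicle replicate 3 to WCE replicate 1, where the 7325 entries with a mean of 5 to 50 FPKM had a median absolute difference of 0.0510 and a 95th percentile of 0.192.

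NKIRAS2, the paralog of NKIRAS1, was at 15.3, 13.6 and 15.6 FPKM in the vehicle tumors and at 15.6, 16.8 and 16.9 FPKM in the WCE tumors. Its groups were 0.0169 FPKM apart, between vehicle replicate 3 and WCE replicate 1. The NKIRAS2 difference was 0.14 (standard error 0.10), 0.22 with both nearly identical libraries left out and 0.09 without vehicle replicate 2. The paralogs therefore differed in sign. The ratio of NKIRAS1 to NKIRAS2 was 1.30, 1.48 and 1.12 in vehicle tumors and 0.957, 0.852 and 0.819 in WCE tumors, so NKIRAS1 was the higher paralog in the 3 vehicle tumors and the lower in the 3 WCE tumors. The mean ratio differed by −0.422, and by −0.554 with both nearly identical libraries left out. The summed FPKM of the pair was 33.9 ± 1.07 and 30.8 ± 0.323 (SD, n = 3 each). The NKIRAS1 share of that sum differed by −9.66 percentage points, and by −12.6 with both nearly identical libraries left out. Of 8 ratios between the genes that were computed, 3 did not overlap between the groups, and they are the 3 given here. The groups overlapped in RELA to NFKB1, RELA to NFKB2, NFKB2 to NFKB1 and IKBKG to IKBKB. They also overlapped in IKBKG to the sum of CHUK and IKBKB. NFKB2, RELB and CHUK each overlapped as single genes. How often ratios of other entries do not overlap was not computed, so nothing is read from this count.

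The listed loci of both NKIRAS genes hold other entries. NKIRAS1 (chr3:23933572-23965187, in the loci of the table, for which the processing notes name hg19 as the human build) shares its locus with RPL15, a ribosomal protein gene at 48.3-fold its mean level. RPL15 was at 802 ± 49.4 FPKM in the vehicle group and 813 ± 25.7 FPKM in the WCE group (SD, n = 3 each), with overlapping groups. NKIRAS2 (chr17:40118759-40190044) shares its locus with DNAJC7, CNP and ZNF385C. DNAJC7 was at 49.6 ± 5.90 and 45.2 ± 4.19 FPKM, and CNP at 15.0 ± 1.52 and 14.4 ± 0.517 FPKM (SD, n = 3 each). The libraries were strand-specific, but whether counting used the strand is not given in the sources used here, and the part of shared reads in the NKIRAS values was not tested.

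**Figure D4:**
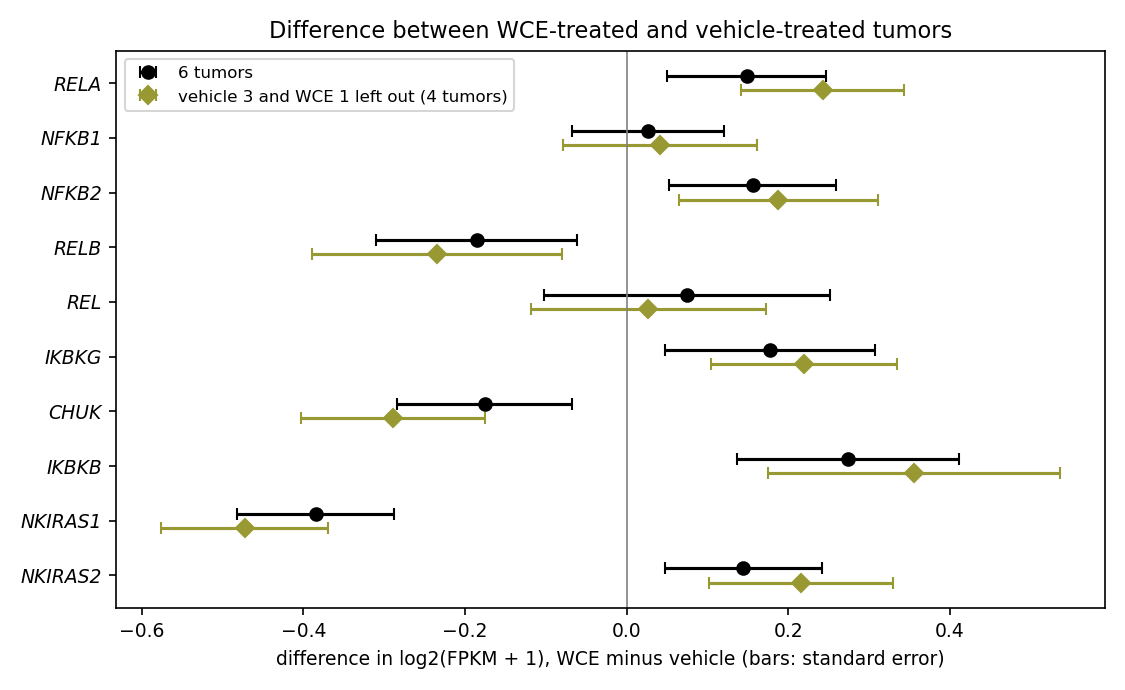
Difference in log2(FPKM + 1) between WCE and vehicle tumors for the 10 genes, with the standard error of the fit, for all 6 tumors (black) and with the nearly identical pair omitted (olive). NKIRAS1 lies at −0.38 and −0.47, and IKBKB, the gene farthest to the right, at 0.27 and 0.36.

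Over the 10 genes, 7 had a higher and 3 a lower mean log2 value in WCE tumors, with a median difference of 0.11. That median was 0.06 without vehicle replicate 2 and 0.17 without vehicle replicate 3. Over all 13287 entries tested, the median difference was −0.01 and the median absolute difference 0.13. By limma with Benjamini-Hochberg adjustment over all entries, 0 of the 10 passed an adjusted p of 0.05, and 1, NKIRAS1, passed it unadjusted. Of all entries, 0.00753% passed the adjusted threshold, which is 1 entry, the small nucleolar RNA SNORA76, and 7.10% had an unadjusted p under 0.05. An unmoderated comparison likewise gave 0 and 1 of the 10, with 593 of the 13287 entries under 0.05 unadjusted. The unadjusted count of the 10 was not stable. With limma array weights it was 2 higher and 2 lower genes, against 3201 entries. Without vehicle replicate 2 it was 1 higher and 1 lower gene, against 347 entries. With both nearly identical libraries left out it was 2 lower genes, against 2449 entries. The adjusted count was 0 in each of these settings. The groups did not overlap in 3 of the 10 genes, IKBKB, NKIRAS1 and NKIRAS2, and in 12.8% of all entries. With the nearly identical libraries omitted, they did not overlap in 9 of the 10 genes, NFKB1 being the exception, and in 53.5% of all entries. As the genes were chosen with this contrast known, nothing is read from these counts. Bulk RNA cannot tell fewer cells of a type from less RNA per cell.

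The other genes of the pathway were taken from fixed lists, which were also chosen with earlier results known. Among 10 IκB proteins and inhibitors, 5 had higher and 5 lower mean log2 values in WCE tumors, and the median difference was −0.03. The groups did not overlap in 0 of these 10, against 12.8% of all entries, and in 5 of the 10 with both nearly identical libraries left out, against 53.5%. With 1 tumor left out the median of the inhibitors ran from −0.15, without vehicle replicate 1, to 0.02, without vehicle replicate 2. NFKBIA, named here after its values were seen, encodes IκBα, the main cytoplasmic inhibitor and a target of NFκB. It was at 77.7 ± 16.0 FPKM in the vehicle group and 71.6 ± 11.1 FPKM in the WCE group (SD, n = 3 each), a difference of −0.11 that was −0.17 with both nearly identical libraries left out. Among 20 adaptors, ubiquitin ligases and kinases upstream of the canonical pathway, 9 were higher and 11 lower, with a median of −0.02, and 4 of 20 did not overlap, or 11 of 20 with both nearly identical libraries left out. RNF31, the catalytic subunit of the linear ubiquitin ligase that modifies NEMO, was at 14.4 ± 1.34 and 17.9 ± 1.14 FPKM (SD, n = 3 each), a difference of 0.30 (standard error 0.10). MALT1, the protease of the CARD-BCL10-MALT1 complex, was at 16.9 ± 0.567 and 14.2 ± 1.32 FPKM, a difference of −0.24, and TAB2, an adaptor of the kinase TAK1, at 22.3 ± 1.21 and 19.5 ± 1.20 FPKM, a difference of −0.18. With both nearly identical libraries left out these differences were 0.37 for RNF31, −0.32 for MALT1 and −0.26 for TAB2.

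In the non-canonical list, 6 of 7 genes were tested, 4 were higher and 2 lower, and the median was 0.02. The groups did not overlap in 0 of the 6, but in 5 of 6 with both nearly identical libraries left out and in 4 of 6 without WCE replicate 1 alone. Over all entries, the background for each list of this paragraph, they did not overlap in 12.8% with 6 tumors. This share was 53.5% with both nearly identical libraries left out, and without WCE replicate 1 alone 5021 of the 13287 entries did not overlap. TNFRSF13C was below the minimum. Among 8 IKK-related kinases, their adaptors and the chaperones of the IKK complex, 3 were higher and 5 lower with a median of −0.02, and the groups did not overlap in 1, or in 5 of 8 with both nearly identical libraries left out. The entry without overlap among the 6 tumors was HSP90AB1, a chaperone of kinases, at 1063, 837 and 830 FPKM in the vehicle tumors and at 820, 724 and 767 FPKM in the WCE tumors, with vehicle replicate 1 the highest. Its difference was −0.23, and −0.34 with both nearly identical libraries left out. In the Ral branch, whose inhibitory complex the NKIRAS proteins bind, 4 of 11 genes were higher and 7 lower, with a median of −0.0031, and 2 of 11 did not overlap, or 5 of 11 with both nearly identical libraries left out. RALA, a Ral GTPase, was at 47.2, 42.9 and 41.1 FPKM in the vehicle tumors and at 38.9, 35.3 and 34.5 FPKM in the WCE tumors, a difference of −0.26 (standard error 0.10). These groups did not overlap. RALB, the other Ral GTPase of the list, was at 30.3 ± 3.06 and 28.1 ± 5.25 FPKM (SD, n = 3 each), with overlapping groups. Its difference was −0.11 (standard error 0.15), and −0.17 with both nearly identical libraries left out. RALGDS, an exchange factor of the Ral proteins, was at 10.9 ± 1.33 and 12.8 ± 0.824 FPKM (SD, n = 3 each), a difference of 0.22. With both nearly identical libraries left out the differences were −0.36 for RALA and 0.32 for RALGDS. The signs of the small medians depended on the scaling. Under quantile normalization those of the inhibitors and the canonical list were 0.00050 and 0.0059, and under upper-quartile scaling that of the Ral list was 0.0053.

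For context, 9 of 10 direct NFκB target genes had a lower mean log2 value in WCE tumors, with a median difference of −0.46. The groups did not overlap in 4 of 10, against 12.8% of all entries. With both nearly identical libraries left out they did not overlap in 6 of 10, against 53.5%. The neutrophil chemokine CXCL8, listed under its older symbol IL8, had the largest difference at −0.61, followed by the cytokine IL6 at −0.60. With both nearly identical libraries left out CXCL8 was at −0.88, IL6 at −0.88 and the median of the targets at −0.68. The medians of the other lists were then −0.02 for the inhibitors, −0.01 for the canonical, 0.06 for the non-canonical, −0.05 for the IKK-related and −0.04 for the Ral list. Several of these targets were singled out by the study on these same tumors, which is no independent evidence of their direction. By limma with Benjamini-Hochberg adjustment, 0 genes of any of these lists had an adjusted p under 0.05, the lowest in each list being 0.623, and those with an unadjusted p under 0.05 were 4 of the 10 targets, 2 of the 20 canonical genes and 1 of the 11 Ral genes, against 7.10% of all entries. The 4 targets became 0 in the unmoderated comparison, 0 without WCE replicate 2 and 7 with limma array weights. Of all 13287 entries, those with an unadjusted p under 0.05 in these settings were 593, 235 and 3201.

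**Figure D5:**
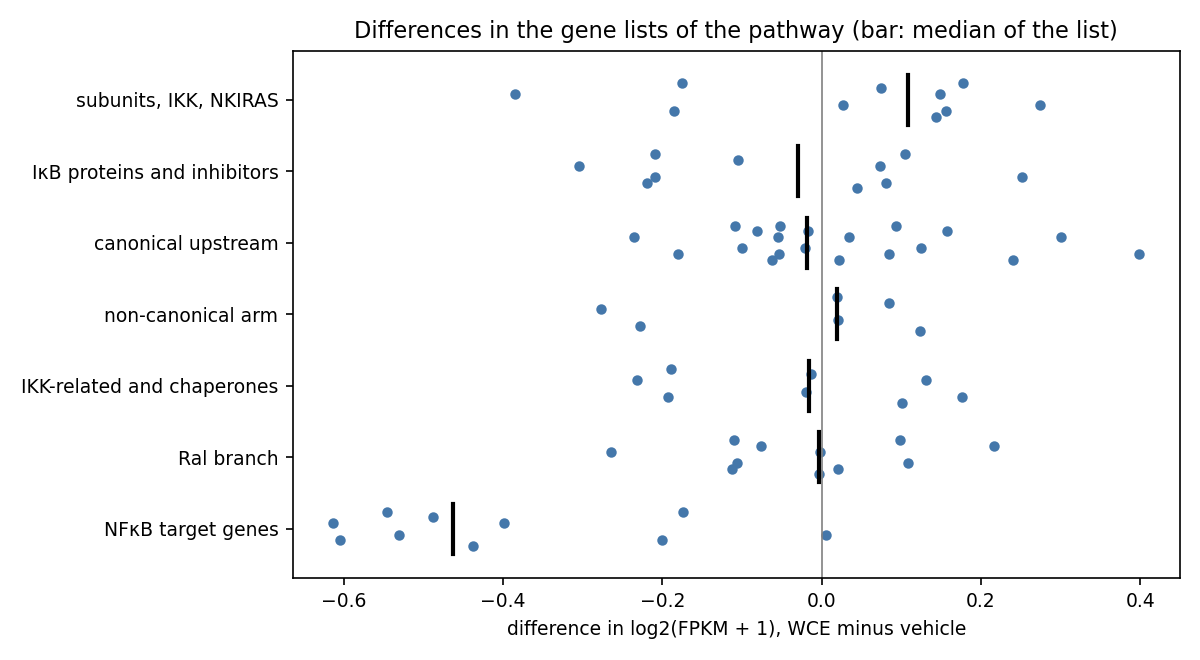
Difference in log2(FPKM + 1) between WCE and vehicle tumors (6 tumors) for each tested gene of the 10 genes above and of 6 fixed lists, with the median of each list as a black bar. The medians of the upper 6 rows lie between −0.03 and 0.11, and that of the NFκB target genes at −0.46.

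Human gene entries that mark host and other cell types were present at unequal levels. The host cells are mouse cells, and how mouse reads were treated is not given. These values therefore do not measure the content of host cells. Of 9 myeloid markers, 8 stayed below 1 FPKM in every tumor, with CD68, which epithelial tumor cells also express, as the exception. The summed myeloid list was 25.8 to 41.5 FPKM in vehicle and 40.6 to 44.7 FPKM in WCE tumors. Most of this sum was CD68, at 31.9 ± 7.45 and 40.7 ± 2.75 FPKM (SD, n = 3 each), with overlapping groups. The sum therefore says little about the other 8 myeloid markers. Of 6 endothelial markers, 4 stayed below 1 FPKM in every tumor, and the sums were 1.25 to 3.43 and 3.21 to 7.63 FPKM. KDR was the 1 endothelial marker whose groups did not overlap, with higher values in WCE tumors. Its closest values were those of the nearly identical vehicle replicate 3 (0.529 FPKM) and WCE replicate 1 (0.559 FPKM). PECAM1 was at 2.14 ± 1.12 and 2.30 ± 0.224 FPKM (SD, n = 3 each), with overlapping groups. Of 7 fibroblast markers, COL1A2, PDGFRB and DCN stayed below 1 FPKM in every tumor, whereas the collagen gene COL1A1 was at 29.5 to 44.0 FPKM in vehicle and 10.4 to 45.7 FPKM in WCE tumors and COL3A1 at 5.81 to 11.3 and 1.81 to 11.7 FPKM. The fibroblast sums were 44.0 to 58.8 and 14.0 to 58.4 FPKM, with the lowest in WCE replicate 2. The epithelial adhesion genes EPCAM and CDH1 were lower in every WCE tumor, at 247 ± 60.2 against 147 ± 29.6 FPKM and 59.3 ± 1.90 against 43.5 ± 11.3 FPKM (SD, n = 3 each). Their closest values were again those of vehicle replicate 3 and WCE replicate 1. These were 185 and 180 FPKM for EPCAM, and 57.8 and 56.5 FPKM for CDH1. In WCE replicates 2 and 3, CDH1 was at 38.0 and 35.9 FPKM. The part of these markers in the differences of the 10 genes was not tested.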

How the data were processed

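RNA-seq libraries (TruSeq Stranded mRNA) of 6 PC-3 xenograft tumors were compared, 3 vehicle and 3 WCE, grouped by their titles. The authors deposited 1 table of FPKM values with 24000 gene entries. The submitters' processing notes name TopHat2 2.0.13, Cufflinks, hg19 and mm10 without their roles, and how reads from mouse cells were treated is not given in the sources used here. The table's loci were changed to count from 1.

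Values were taken as log2(FPKM + 1) and fitted with limma 3.58.1 (R 4.3.3, trended eBayes, two-sided, Benjamini-Hochberg, threshold 0.05) over the 13287 entries (55.4%) with a mean of at least 0.5 FPKM. The code was tested on simulated data. The labels do not say that tumors of a group came from separate mice, so p-values measure the spread between these samples. Shares and ratios were computed per tumor with Python 3.11.15.

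The 10 genes and the gene lists were chosen with earlier results of these data known. Of each list, the text names entries past the threshold or otherwise up to 2 rises and 2 falls with the largest differences among entries whose groups did not overlap. NFKBIA, HSP90AA1, RALB and the genes at shared loci were named after their values were seen. Alternatives were another pseudocount, filter, scaling, trend, moderation and weighting, a replicate block, and leaving out tumors. Some marker and neighboring genes are not reported here.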

Additional observations from a re-analysis of the deposited data

How the results depend on the processing

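The depth is known only relative to vehicle replicate 3, so no counting interval can be given. The number of entries past the adjusted threshold in limma, 1 with 6 tumors (944 at an unadjusted p under 0.05), was 0 without a filter on low values (1051 unadjusted), 0 in the unmoderated comparison (593 unadjusted), 1 with array weights (3201 unadjusted), and 5, each a small RNA, when the nearly identical vehicle replicate 3 and WCE replicate 1 were omitted. It was 1 to 7 when 1 tumor at a time was left out, with 7 without WCE replicate 1 and 2 without WCE replicate 2. Entries without overlap numbered 1696 with 6 tumors, 2303 to 5021 with 1 tumor left out and 7112 with both libraries left out. Leaving out tumors can only keep or raise the number of entries without overlap. The cause of these changes was not tested.

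With both nearly identical libraries left out, the differences of RELA (0.242), CHUK (−0.289) and NKIRAS1 (−0.473) moved by more than the spread between replicates, as did the NKIRAS1 and NKIRAS2 shares (−12.6 and 12.6 percentage points) and the median of the non-canonical list (0.0574). With array weights the medians of the inhibitors (−0.162) and of the non-canonical list (0.0775) moved. With 1 tumor left out, medians ranged from 0.0562 to 0.174 for the 10 genes, from −0.0276 to 0.0536 for the canonical list and from −0.0619 to 0.0651 for the non-canonical list. The median of the targets ranged from −0.637 to −0.242, the latter without WCE replicate 2. Of the 10 genes, 8 kept the sign of their difference in 17 of 17 alternatives. NFKB1 changed sign without vehicle replicate 2, and REL without WCE replicate 1 and with array weights. Between 8 and 10 of the genes kept their place in the order of levels.

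With the replicate block, 1 entry was past the adjusted threshold (1049 unadjusted). Deviations of tumors with the same number correlated at −0.24, 0.16 and −0.093, so the numbers were not taken to pair the tumors.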

Other observations

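HSP90AA1, the inducible form of the chaperone HSP90, was at 1235 FPKM in vehicle replicate 1 and between 833 and 877 FPKM in the other 5 tumors. The same tumor had the highest HSP90AB1 value of the 6, the lowest IKBKB, IKBKG and NFKB2 values and the highest CHUK and NFKB1 values. Vehicle replicate 1 also stood apart over the entries with a mean of at least 50 FPKM. Its median absolute log2 differences from vehicle replicate 3 and the WCE tumors, 0.2385 to 0.2486, were the largest of all pairs. It had the lowest limma array weight, 0.408. Whether its extreme values in these genes belong together was not tested.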
